A study of Mus musculus with 8 samples.

Results

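Vmp1 is the mouse gene whose transcribed region holds Mir21a, the gene of miR-21, and it was followed here row by row on arrays of mammary tumors with and without miR-21. Its members were taken by annotation alone: 22 probe set rows annotated with Vmp1 and 1 row annotated with both Mir21 and Vmp1, 23 of the 269751 rows of the array. A row is a small group of probes that reads a stretch of a gene, on the scale of an exon, and its value is a log2 signal, so that a difference of 1 is a 2-fold change. The tumors arose in the mammary fat pad of female MMTV-PyMT mice, in which the MMTV promoter drives the polyomavirus middle T antigen in mammary cells. All 4 groups carried this transgene: irradiated and untreated miR-21-/- tumors, which lacked both copies of miR-21, and irradiated and untreated miR-21+/+ tumors, which kept them. Each group had 2 arrays. Irradiated tumors had received 8 Gy per the labels (the study's methods name a lower dose for tumors in mice). Ages at collection were not given in the sources used here. For collection after irradiation the study's methods name growth to a set tumor volume, and a figure legend names a short fixed time. Which holds for these arrays is unclear, so the radiation differences cannot be placed as early or late. The part of the locus that the deletion removes was not given in the sources used here, and nothing says whether the 2 arrays of a group came from different animals. The p-values therefore cover the spread from array to array, which may be technical.

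VMP1 is a membrane protein of the endoplasmic reticulum. It moves phospholipids between the leaflets of the membrane, as does its relative TMEM41B, and it is needed for the closed autophagosome to form from endoplasmic reticulum contacts. In human cells the primary transcript of miR-21 overlaps the end of VMP1 and has a start of its own inside the gene, while some miR-21 also comes from transcripts that begin at VMP1. A deletion of miR-21 is therefore also a change in the sequence of its host gene, and the rows of Vmp1 can be read separately for where along the gene the genotypes differ.

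The sequences that the deletion concerns are shown first, from RefSeq on build GRCm38.p6, minus strand of chromosome 11. The hairpin of Mir21a lies at chr11:86584067-86584158, with its 2 mature arms in capitals. The mature 5p arm lies at chr11:86584120-86584141 and the 3p arm at chr11:86584082-86584103, with the seed (bases 2 to 8) in capitals. Of the 1679 mature mouse miRNA names in the table, 1 other, mmu-miR-21c, had the seed of the 5p arm, and 0 others had that of the 3p arm.
Mir21a hairpin: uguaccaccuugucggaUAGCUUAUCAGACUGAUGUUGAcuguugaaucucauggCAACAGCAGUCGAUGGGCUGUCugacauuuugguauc
mmu-miR-21a-5p: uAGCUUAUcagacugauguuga
mmu-miR-21a-3p: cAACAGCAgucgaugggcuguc

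The files named each row by a number and a gene symbol, with no genome position. In the order of the numbers, row 17254661 stood between rows of Tubd1 and Ptrh2, and the other 22 rows, from 17267330 to 17267352 with 1 number skipped, stood between rows of Rps6kb1 and Cltc. In each of the 2 runs, 17 of 17 genes around the Vmp1 rows that had a position in the RefSeq table lay on chromosome 11, and 16 of 16 neighbouring pairs stood in ascending order of position. The row shared with Mir21, 17267331, thus had the rows 17267330 and 17267332 as its neighbours by number. The exon or intron that each row reads was not given in the sources used here.

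The arrays were even in overall signal, with medians over all rows of 5.67 to 5.75. Replicate 1 of the irradiated miR-21-/- tumors stood apart, whose correlations across rows with the rest were 0.853 to 0.87, while the remaining pairs had 0.904 to 0.944. Its mean log2 level over 10 of 10 adipocyte markers was 10.59, against 4.72 to 5.74 in the other 7 arrays. Its means were also the highest over 8 fibroblast markers (8.80 against 6.59 to 7.16), 5 endothelial markers (7.65 against 5.29 to 6.50) and 9 macrophage markers (7.67 against 6.39 to 7.48). Its mean over 10 luminal epithelial markers was the lowest, 7.36 against 7.90 to 8.40. Single markers did not all follow these means. The macrophage markers Cd68, C1qa, C1qb, C1qc and Tyrobp were highest in replicate 2 of irradiated miR-21-/- tumors. The array that stood apart was lowest in Cd14 (7.57) and not the highest in the fibroblast marker Col1a1. Among luminal markers it was highest in Esr1 (8.09) and not the lowest in Krt19 and Foxa1. In bulk tissue fewer cells of a type and less RNA per cell cannot be told apart. The main genotype results are given without the array that stood apart too.

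Across the 23 rows the mean log2 level over all arrays ran from 2.29 to 9.77, with a median of 5.89, 7 rows above 8 and 3 below 4. Levels of different rows reflect their probes as well as the transcript and were not set against each other.

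**Figure D1:**
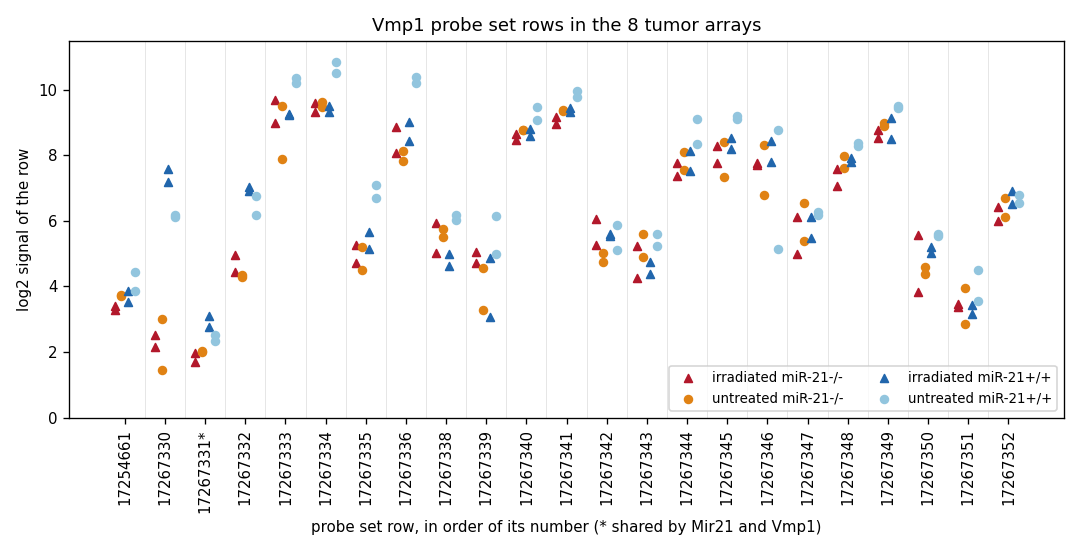
Log2 signal (vertical axis) of the 23 Vmp1 probe set rows (horizontal axis, in order of row number) in the 8 arrays, 1 point per array, with triangles for irradiated and circles for untreated tumors. The miR-21-/- points lie below all miR-21+/+ points in rows 17267330, 17267331 and 17267332, and the genotypes overlap in the other 20 rows.

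The genotypes stood apart in 3 rows with consecutive numbers, 17267330, 17267331 and 17267332, which are the row shared with Mir21 and the rows on either side of it. They were the 3 rows of 23 in which all miR-21-/- arrays lay below all miR-21+/+ arrays, and 0 rows had them all above. Over the whole array 4.57% of rows had all miR-21-/- arrays below all miR-21+/+ arrays, and 3.43% had them all above.

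The shared row, 17267331, is the one annotated with the deleted gene and was read as a check of the labels, though a weak one. It read 1.69 and 1.97 in irradiated miR-21-/- tumors and 2.02 and 2.0 in untreated miR-21-/- tumors, against 2.75 and 3.08 in irradiated miR-21+/+ tumors and 2.50 and 2.34 in untreated miR-21+/+ tumors. The genotypes did not overlap, with 0.32 between the highest miR-21-/- and the lowest miR-21+/+ array. This is the direction that the labels call for, but 4.57% of all rows showed the same. The means were 1.92 ± 0.16 in miR-21-/- tumors and 2.67 ± 0.32 in those with miR-21+/+ (SD, n = 4 each), a difference of -0.75 (SE 0.21) that reached a two-sided exact permutation p of 0.0286, the smallest that 4 arrays against 4 allow and the value that groups without overlap always give, and missed the threshold over all rows (limma, adjusted p = 0.242). The row was dim: its mean level lay at percentile 6.97 of all rows, close to the lowest signals of the array. Its difference was also only -0.03 from that of the gene's other rows. The row thus cannot show by itself that Mir21 sequence was lost.

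Row 17267330, annotated with Vmp1 alone, showed the largest difference of the gene. It read 2.15 and 2.53 in irradiated miR-21-/- tumors and 3.0 and 1.44 in untreated miR-21-/- tumors. In miR-21+/+ tumors it read 7.19 and 7.57 after irradiation and 6.13 and 6.18 without it. The 4 miR-21-/- arrays were all low, at most 3.0, and the gap to the lowest miR-21+/+ array was 3.12. The mean of 2.28 ± 0.66 in miR-21-/- tumors stood at percentile 6.91 of all rows by level, and the mean of 6.77 ± 0.73 in miR-21+/+ tumors at percentile 66.5 (SD, n = 4 each). The miR-21-/- level was thus as close to the lowest signals of the array as that of the shared row. The estimated difference of -4.49 (SE 0.37), a signal 22.4-fold lower, may therefore understate the size.

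Row 17267332, on the other side of the shared row by number, differed by less. It read 4.97 and 4.43 in irradiated miR-21-/- tumors and 4.36 and 4.29 in untreated miR-21-/- tumors, against 7.05 and 6.90 in irradiated miR-21+/+ tumors and 6.75 and 6.18 in untreated miR-21+/+ tumors. The genotypes were 1.21 apart at their closest arrays. The means were 4.51 ± 0.31 in miR-21-/- tumors and 6.72 ± 0.38 in those with miR-21+/+ (SD, n = 4 each), a difference of -2.21 (SE 0.24) or 4.62-fold, and the row stood at percentile 31.8 of all rows by level in miR-21-/- tumors, against percentile 65.8 in miR-21+/+ tumors.

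**Figure D2:**
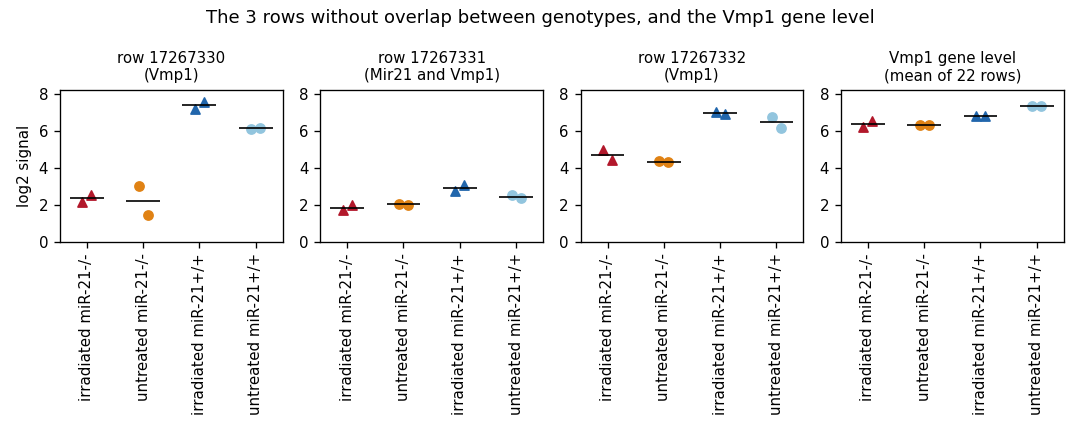
Log2 signal (vertical axis) in each array by group for rows 17267330, 17267331 (shared by Mir21 and Vmp1) and 17267332 and for the Vmp1 gene level, the mean of its 22 rows. Points are arrays (n = 2 per group) and lines are group means, and in each panel all 4 miR-21-/- arrays lie below all 4 miR-21+/+ arrays.

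Rows 17267330 and 17267332 each reached an adjusted p of 0.0869 over all rows (limma, Benjamini-Hochberg adjustment). At an adjusted p under 0.05, 0 of 23 rows passed, against 0.000371% of all rows lower (1 row in all) and 0.0% higher. At an unadjusted p under 0.05, 8 of 23 rows were lower, against 7.44% of all rows, and 0 were higher, against 5.23%. At the thresholds the study used, at least a 2-fold change with an unadjusted p under 0.05, 4 of 23 rows were lower (17267330, 17267332, 17267335 and 17267336), against 3.84% of all rows, and 0 were higher, against 2.16%. Without the array that stood apart, the differences were -4.39 in row 17267330, -2.34 in row 17267332 and -0.68 in the shared row. Leaving out replicate 2 of irradiated miR-21-/- in its place brought rows 17267330 and 17267332 past the adjusted threshold (adjusted p = 0.0384 and 0.0418 in limma).

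The signal of these rows was low in both treatments. In row 17267330 the genotypes differed by -5.04 in irradiated tumors and by -3.93 in untreated tumors, with adjusted p-values of 0.194 and 0.188 in the limma fit. These estimates are 33.0-fold in irradiated and 15.2-fold in untreated tumors, with an SE of 0.52 in log2 for each. With the miR-21-/- signals so low they may understate the size too. In row 17267332 the differences were -2.27 and -2.14, nearly the same size. In the shared row they were -1.09 in irradiated and -0.41 in untreated tumors. The interaction, the radiation effect in miR-21-/- minus that in miR-21+/+ tumors, was -1.11 (SE 0.74) in row 17267330, -0.13 (SE 0.49) in row 17267332 and -0.68 (SE 0.42) in the shared row, with adjusted p-values in the limma fit of 0.821, 0.972 and 0.811.

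Most of the other 20 rows of the gene differed in the same direction, all by less than rows 17267330 and 17267332. Some differed by more than the shared row (-0.75). The genotype differences of the 20 rows had a median of -0.39 and ran from -1.29 to 0.11, with 17 of 20 below 0. Over all 23 rows 20 were below 0, with a median of -0.40. Over all rows of the array the median difference was 0.00 and 49.7% were below 0. The largest of these differences were in rows 17267336 (-1.29, adjusted p = 0.164) and 17267335 (-1.23, adjusted p = 0.187 in the limma fit).

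The differences of these 20 rows within each treatment are given without a call, since no Vmp1 row passed the test of the interaction (adjusted p of 0.605 or more in limma). In irradiated tumors 13 of 20 rows were lower in miR-21-/- tumors in mean, with a median of -0.24, and in untreated tumors 19 of 20, with a median of -0.58. Row 17267336 read 8.07 and 8.86 in irradiated miR-21-/- tumors against 9.01 and 8.44 in irradiated miR-21+/+ tumors, and 8.13 and 7.83 in untreated miR-21-/- tumors against 10.38 and 10.21 in untreated miR-21+/+ tumors. The irradiated groups thus overlapped, while the untreated groups stood more than 2 log2 units apart. Row 17267334 read 9.32 and 9.61 in irradiated miR-21-/- tumors against 9.49 and 9.31 in irradiated miR-21+/+ tumors, and 9.46 and 9.64 in untreated miR-21-/- tumors against 10.83 and 10.51 in untreated miR-21+/+ tumors. In this row, too, only the 2 untreated miR-21+/+ arrays were high.

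At the thresholds of the study 3 of 23 rows were lower in irradiated miR-21-/- tumors (17267330, 17267331 and 17267332), against 4.8% of all rows. In untreated tumors 7 of 23 rows passed (17267330, 17267332 to 17267336 and 17267345), against 4.59% of all rows. An unadjusted p under 0.05 alone gave 3 rows in irradiated tumors, against 6.02% of all rows, and 7 in untreated tumors, against 5.52%, and at an adjusted p under 0.05 there were 0 in both treatments, where 0.0% of all rows passed in either direction. The 3 rows that passed in irradiated tumors were those without overlap.

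**Figure D3:**
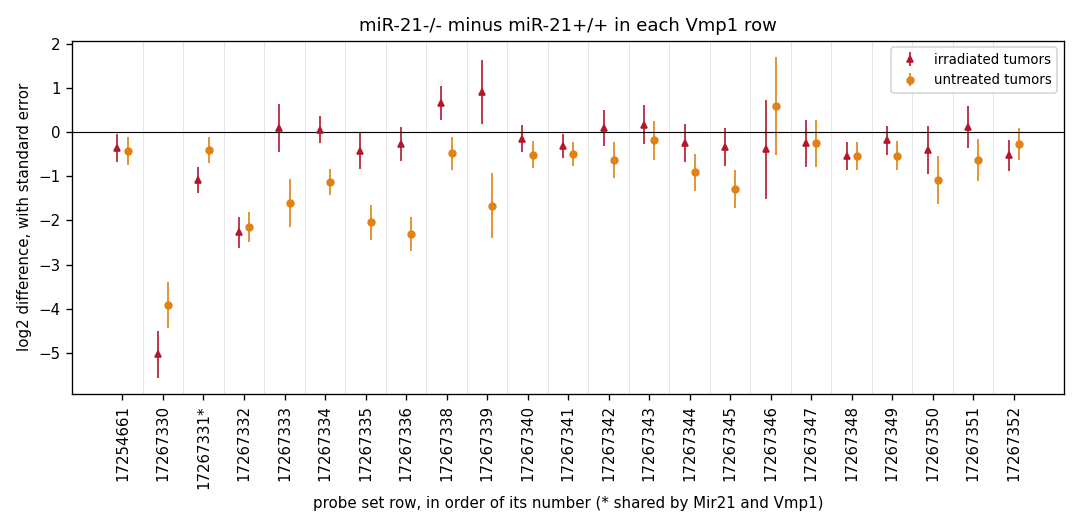
Log2 difference, miR-21-/- minus miR-21+/+ (vertical axis, with standard error), in each of the 23 rows (horizontal axis, in order of row number), for irradiated (triangles) and untreated (circles) tumors. Row 17267330 is the lowest in both, at -5.04 in irradiated and -3.93 in untreated tumors, and rows 17267333 to 17267336 are lower in untreated than in irradiated tumors.

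Whether a row departed from the rest of its gene was tested with diffSplice of limma, which sets each row's difference against those of the gene's other rows. By this test of limma 2 of 23 rows were lower than the rest of Vmp1, 17267330 by -3.93 (adjusted p = 1.90e-12) and 17267332 by -1.55 (adjusted p = 0.0206), against 0.367% of the 231435 rows tested. The shared row differed from the rest by -0.03, with an adjusted p of 1.0 by diffSplice of limma. By diffSplice of limma, row 17267330 also departed within irradiated tumors (-4.79, adjusted p = 5.26e-10) and within untreated tumors (-3.07, adjusted p = 0.000218), as the 1 Vmp1 row called in each, against 0.144% and 0.334% of rows. The count was 1 in place of 2 when replicate 2 of irradiated miR-21-/-, replicate 1 of untreated miR-21+/+ or either replicate of irradiated miR-21+/+ was left out. The test assumes that all rows of a gene vary alike, and the Vmp1 rows did not. Their SDs within groups ran from 0.11 in row 17267341 to 1.41 in row 17267346. The test also counts the rows of a gene as independent, though all were read on the same arrays. Its p-values can therefore be too small. With a spread of its own for each row, an alternative added after seeing the data, row 17267330 departed by -3.93 (SE 0.37) with an unadjusted limma p of 1.79e-05 and an adjusted p of 0.280, and row 17267332 had an adjusted p of 0.362. This alternative called 0 of the 231435 rows tested, so that its lack of calls is not particular to Vmp1.

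The wide spread of row 17267346 came from 1 array. It read 7.78 and 7.69 in irradiated miR-21-/- tumors, 6.80 and 8.33 in untreated miR-21-/- tumors, 7.79 and 8.45 in irradiated miR-21+/+ tumors, and 5.15 and 8.78 in untreated miR-21+/+ tumors. Replicate 1 of the untreated miR-21+/+ tumors was thus the low one, and it was the lowest array in no other Vmp1 row.

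As a whole, the gene read lower without miR-21, by a call that several alternatives did not keep. The Vmp1 gene level, the mean of its 22 rows of its own, was 6.20 and 6.55 in irradiated miR-21-/- tumors and 6.34 and 6.34 in untreated miR-21-/- tumors, against 6.81 and 6.80 in irradiated miR-21+/+ tumors and 7.38 and 7.33 in untreated miR-21+/+ tumors. The genotypes did not overlap. The means were 6.36 ± 0.14 in miR-21-/- tumors and 7.08 ± 0.32 in those with miR-21+/+ (SD, n = 4 each), a difference of -0.73 (SE 0.13) that passed over all 23152 genes (limma, adjusted p = 0.0344), as did 1.98% of genes in this direction. Without the array that stood apart it was -0.64 (adjusted p = 0.0195 in limma). The call was lost, with differences of -0.71 to -0.74 and adjusted p-values of 0.108 to 0.171 in limma, on leaving out any of the other arrays except replicate 2 of the irradiated miR-21-/- tumors, that is, either untreated miR-21-/- array or any of the 4 miR-21+/+ arrays. It was also lost with the replicate number as a block (-0.73, adjusted p = 0.0635) and with the median of the rows in place of their mean (-0.83, adjusted p = 0.137, both in limma).

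The gene level includes the rows with the lowest differences. Without rows 17267330 and 17267332, an alternative added after seeing the data, the level was 6.46 and 6.86 in irradiated miR-21-/- tumors and 6.60 and 6.68 in untreated miR-21-/- tumors, against 6.78 and 6.75 in irradiated miR-21+/+ tumors and 7.47 and 7.45 in untreated miR-21+/+ tumors. The genotypes then overlapped among irradiated tumors, and the difference was -0.46 with an adjusted p of 0.133 in limma.

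Ordered by mean, the gene level was lowest in untreated miR-21-/- tumors (6.34), then irradiated miR-21-/- tumors (6.37), irradiated miR-21+/+ tumors (6.81) and untreated miR-21+/+ tumors (7.35). No pair of neighbours in this order differed past an adjusted p of 0.05: the difference between irradiated and untreated miR-21-/- tumors was 0.04 (adjusted p = 0.954), that between irradiated miR-21-/- and irradiated miR-21+/+ tumors was -0.43 (adjusted p = 0.347), and that between irradiated and untreated miR-21+/+ tumors was -0.55 (adjusted p = 0.381, all by limma). Between untreated miR-21-/- and untreated miR-21+/+ tumors the difference was -1.02 with an adjusted p of 0.066 by limma, where 0.32% of genes passed as lower. The size within a treatment rested on how the rows were summed: with the median of the rows the genotype difference was -1.23 in irradiated and -0.42 in untreated tumors, the opposite order, and without rows 17267330 and 17267332 it was -0.11 in irradiated and -0.82 in untreated tumors.

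Irradiation was compared with no treatment within each genotype. In miR-21+/+ tumors 17 of 23 rows were lower after irradiation in mean, with a median of -0.59, against -0.01 over all rows. The 6 rows above 0 included the 3 that were without overlap between the genotypes, at 1.23 in row 17267330 (SE 0.52, adjusted p = 0.825 in limma), 0.50 in the shared row and 0.51 in row 17267332. The other 20 rows had a median of -0.69, with 17 of 20 below 0. This contrast is partly set by how the 3 rows were picked. A row whose miR-21+/+ signal fell after irradiation to the miR-21-/- level overlaps and is left out of them. In row 17267330 both irradiated miR-21+/+ arrays (7.19 and 7.57) lay above both untreated miR-21+/+ arrays (6.13 and 6.18), whereas in rows 17267334 and 17267336, given above, both lay below. Each row was also set against the mean of the other rows of the gene, with a spread of its own. For the radiation effect in miR-21+/+ tumors the unadjusted limma p-values were 0.011 in row 17267330, 0.0078 in the shared row and 0.032 in row 17267332. Their adjusted p-values were 0.935, 0.916 and 1.0, and their effects lay above the rest of the gene. Rows 17267334 (-0.80), 17267335 (-1.02), 17267336 (-1.11) and 17267338 (-0.84) lay below it. Their unadjusted limma p-values were 0.026, 0.032, 0.015 and 0.039. After adjustment 0 of the 231435 rows tested passed.

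At the thresholds of the study 4 of 23 rows were lower in irradiated miR-21+/+ tumors, 17267334 (-1.27), 17267335 (-1.48), 17267336 (-1.57) and 17267338 (-1.31), against 2.49% of all rows. Their adjusted p-values in limma were 0.501 to 0.625. The same count passed an unadjusted p under 0.05, against 3.16% of all rows, and 0 passed an adjusted p under 0.05, where 0.0% of all rows did.

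In miR-21-/- tumors the rows of Vmp1 were split, 12 of 23 lower after irradiation and 11 higher, with a median of -0.08. By the thresholds of the study 0 were lower, against 3.88% of all rows, and 0 were higher, against 3.51%, and 0 had an unadjusted p under 0.05 in limma, against 5.1% of all rows lower and 4.05% higher. In the rows without overlap the effects of irradiation were 0.12 in row 17267330, -0.18 in the shared row and 0.38 in row 17267332.

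The radiation effect in miR-21-/- tumors was above that in miR-21+/+ tumors in 17 of 23 rows. All 17 were among the 20 rows other than 17267330 to 17267332, where the median interaction was 0.67. This split, too, is partly set by the choice of rows 17267330 to 17267332 for their lack of overlap. At the thresholds of the study 4 rows had a higher interaction, 17267334 (1.19), 17267335 (1.62), 17267336 (2.05) and 17267339 (2.58), against 3.07% of all rows, and 4 had an unadjusted p under 0.05, against 3.09%. Their adjusted p-values in limma were 0.605 to 0.722, and 0 rows passed at 0.05, where 0.0% of all rows did. The interaction of the gene level was 0.59 (SE 0.25), with an adjusted p of 0.621 in limma.

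**Figure D4:**
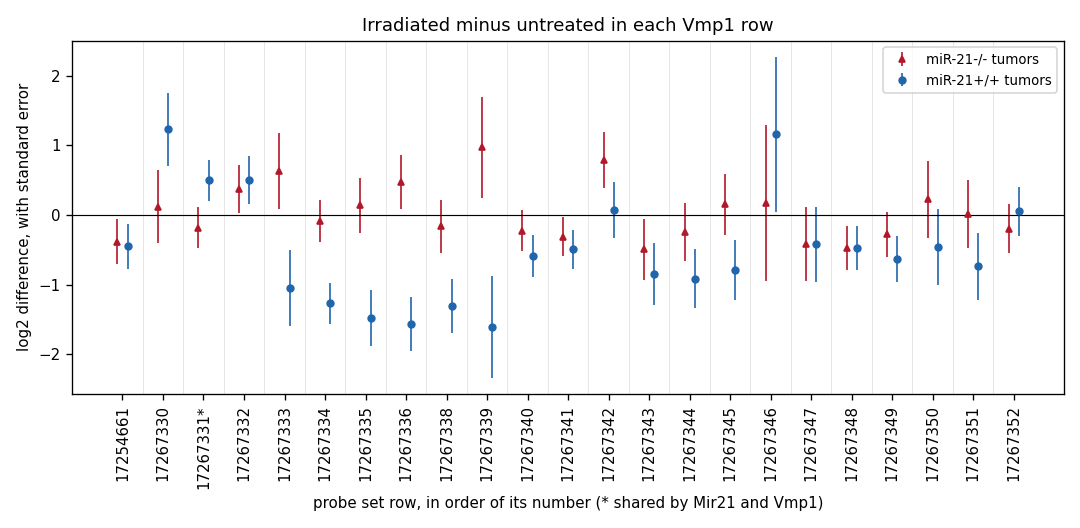
Log2 difference, irradiated minus untreated (vertical axis, with standard error), in each of the 23 rows (horizontal axis, in order of row number), for miR-21-/- (triangles) and miR-21+/+ (circles) tumors. In miR-21+/+ tumors row 17267330 is at 1.23 while rows 17267334 to 17267336 are at -1.27 to -1.57.

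The start of the gene is shared with a neighbour. Of the 3 start windows RefSeq lists for Vmp1, the outermost, chr11:86683787-86684086 on the minus strand of GRCm38.p6, shares 263 of its 300 bases with the start window of Ptrh2, which encodes a mitochondrial peptidyl-tRNA hydrolase and runs the other way. It is shown because a difference at a common start would be looked for in both genes. It holds 28 CG pairs and 60.3% G and C, against a median of 52.7% over all 32851 windows, and the capitals mark 1 match to the ETS core, CCGGAAGT on either strand, which 3.89% of all windows hold.
Vmp1 start window: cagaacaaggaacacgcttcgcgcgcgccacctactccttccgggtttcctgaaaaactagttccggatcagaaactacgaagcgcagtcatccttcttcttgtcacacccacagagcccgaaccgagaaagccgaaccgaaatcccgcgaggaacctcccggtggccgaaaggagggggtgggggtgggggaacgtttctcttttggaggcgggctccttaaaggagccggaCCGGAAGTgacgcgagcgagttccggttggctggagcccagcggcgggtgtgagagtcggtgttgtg
On either strand, none of the 3 windows holds the letters of a TATA box (TATAAA, in 13.6% of all windows), a CCAAT box (CCAAT, in 37.4%), a GC box (GGGCGG, in 35.7%), an AP-1 motif (TGANTCA, in 7.81%) or a STAT motif (TTCNNNGAA, in 8.30%).

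Vmp1 was then set beside the 5 measured protein-coding genes on each side of it in chromosome order. Of these 10 neighbours 1 passed as lower in miR-21-/- tumors, against 1.98% of all genes, and the median of their differences was -0.19, against 0.02 over all genes. Ptrh2, which shares the start window, differed by -0.27 (adjusted p = 0.605 in limma). Cltc, the clathrin heavy chain, differed by -0.32 with means of 9.70 ± 0.12 in miR-21-/- tumors and 10.02 ± 0.12 in those with miR-21+/+ (SD, n = 4 each) and an adjusted p of 0.211 in limma.

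The neighbour that passed was Gdpd1, a lysophospholipase D. Its level was 6.03 and 6.86 in irradiated miR-21-/- tumors and 6.99 and 6.96 in untreated miR-21-/- tumors, against 7.92 and 8.31 in irradiated miR-21+/+ tumors and 7.60 and 7.37 in untreated miR-21+/+ tumors. The array that stood apart was the lowest, and the genotypes did not overlap. The difference was -1.09 (SE 0.20, adjusted p = 0.0412 in limma), -1.68 in irradiated and -0.51 in untreated tumors, and with the replicate number as a block the adjusted p was 0.0616 in limma. Without the array that stood apart the difference was -0.88 (adjusted p = 0.0119 in limma), and on leaving out either untreated miR-21-/- array or any of the 4 miR-21+/+ arrays the adjusted p in limma was 0.106 to 0.191. In irradiated tumors 6 of 10 neighbours were below 0, and in untreated tumors 10 of 10.

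**Figure D5:**
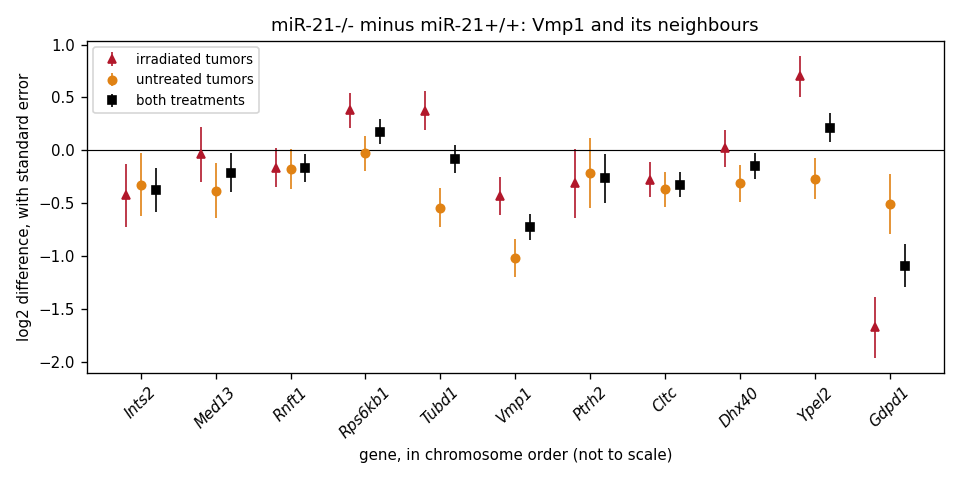
Log2 difference, miR-21-/- minus miR-21+/+ (vertical axis, with standard error), at gene level for Vmp1 and the 5 protein-coding genes on each side of it in chromosome order (horizontal axis, not to scale), in irradiated tumors, untreated tumors and both. Vmp1 (-0.73) and Gdpd1 (-1.09) have the lowest differences over both treatments.

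The genes that work with VMP1 in forming autophagosomes were given by a list of 43, all of them measured. In miR-21-/- tumors 1 of 43 was lower and 0 were higher at an adjusted p under 0.05, against 1.98% and 0.359% of all genes, and the median difference was 0.01, against 0.02 over all genes. Tmem41b, the relative of Vmp1 with the same enzymatic role, differed by -0.61 (adjusted p = 0.068 in limma), with means of 6.87 ± 0.23 in miR-21-/- tumors and 7.48 ± 0.23 in those with miR-21+/+ (SD, n = 4 each). Its differences were -0.95 in irradiated tumors and -0.28 in untreated tumors.

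The other 5 named members did not pass an adjusted p of 0.05 in limma, over both treatments or within either. Atp2a2, the calcium pump that VMP1 regulates, differed by 0.06 over both treatments. Its means were 9.14 in irradiated miR-21-/- tumors against 9.20 in irradiated miR-21+/+ tumors, and 9.26 against 9.10 in untreated tumors. Becn1, which sets up the lipid kinase complex that starts autophagosomes, differed by -0.10, and the cargo receptor Sqstm1 by -0.15. For Atp2a2 and the 2 members that follow, the value over both treatments averages differences of opposite sign. Trp53inp2, an autophagosome protein that binds VMP1, differed by -0.30 in irradiated and 0.34 in untreated tumors, and by 0.02 over both. The LC3 gene Map1lc3a differed by -0.35 in irradiated and 0.36 in untreated tumors, and by 0.01 over both, with an interaction of -0.71 (SE 0.24, adjusted p = 0.513 in limma).

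The 1 gene of the list that passed was Wdr45b, listed under its older symbol Wdr45l, which encodes a lipid-binding protein of the growing autophagosome. Its level was 7.70 and 7.85 in irradiated miR-21-/- tumors and 7.84 and 7.96 in untreated miR-21-/- tumors, against 9.33 and 9.02 in irradiated miR-21+/+ tumors and 9.05 and 8.89 in untreated miR-21+/+ tumors. The genotypes were almost 1 log2 unit apart at their closest arrays. The difference was -1.23 (SE 0.13, adjusted p = 0.00964 in limma), and it also passed within irradiated tumors (adjusted p = 0.033, against 0.333% of genes lower), while the adjusted p within untreated tumors was 0.066. With the replicate number as a block the adjusted p in limma was 0.0243 over both treatments and 0.068 within irradiated tumors, where the call was lost. Without the array that stood apart it was -1.19 (adjusted p = 0.00287), and on leaving out either untreated miR-21-/- array or any miR-21+/+ array except replicate 2 of the untreated ones the adjusted p in limma was 0.0526 to 0.0884. Wdr45b lies, like Vmp1, on chromosome 11, in the stretch from Cpsf4l to B3gntl1. In it 134 of 161 measured protein-coding genes were below 0, with a median of -0.63, against 0.02 over all genes. The stretch was chosen with earlier results of these data known, so this count and median partly follow from the choice. Vmp1 lies outside this stretch, with 412 measured protein-coding genes between, and so do its 10 neighbours.

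The genes whose levels across the 8 arrays were most like that of Vmp1, by Pearson correlation among 4832 genes that varied enough to compare, were Rgs19 (r = 0.987, Spearman rho = 1.0), Odc1 (0.978, rho = 0.952), Cdt1 (0.975, rho = 0.905), Fkbp11 (0.971, rho = 0.905) and Stam (0.970, rho = 1.0). They lie on chromosomes 2, 12, 8, 15 and 2. The points are 8 arrays of 4 groups, so these values describe a common order of the groups, and they carry no test.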

How the data were processed

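Mammary tumors of 8 samples were measured on Affymetrix Mouse Gene 2.0 ST arrays, 2 per group. The authors processed the arrays with RMA in Affymetrix Expression Console 1.4 (Transcriptome Analysis Console 3.1 is named too), and deposited, for probe sets at the level of exons, log2 signals after background correction, quantile normalization and median polish. RMA pulls arrays to a common distribution, and a dim row keeps a floor, which narrows its differences. The number of arrays limits the precision. The genome build was not given in the sources used here. Of the 269751 rows, 233753 had 1 gene symbol, 5139 several and 30859 none listed, and 0 columns of per-sample values were left unused.

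The linear models of limma 3.58.1 (R 4.3.3) were fitted to every row over all 8 arrays, 1 mean for each group and 4 residual degrees of freedom, two-sided, with Benjamini-Hochberg adjustment over all rows and 6 contrasts. Gene levels are means of a gene's rows with 1 symbol (23152 genes). The fit and diffSplice were tested on simulated data with independent rows. The main diffSplice check gave all rows of a gene 1 spread, which the Vmp1 rows do not have, so it does not cover them. Single values had exact permutation tests (scipy 1.17.1). The members and the gene lists were chosen with earlier results of these data known, as was the stretch of chromosome 11. Named genes were all Vmp1 rows, the 5 protein-coding neighbours on each side, 6 fixed genes of the autophagosome list with any that passed, and the 5 genes most like Vmp1 among those with at least 4 rows, a mean level above 6 and an SD at least 0.5 times that of Vmp1. Alternatives were other variance estimates, array weights, renormalization, a filter on low levels, a replicate block, other summaries of rows, fits within a treatment and leaving out each array. Same-numbered arrays of different groups did not deviate together (correlations of -0.07 to 0.03). This gives no sign of a broad pairing by number, but a pairing that touches few genes would not show.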

Additional observations from a re-analysis of the deposited data

Results flagged for a closer look

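In the row shared by Mir21 and Vmp1, 17267331, replicate 1 of the irradiated miR-21-/- tumors lay below the other 3 miR-21-/- arrays (1.69 against 1.97 to 2.02), with a gap to the nearest that was 0.847 of the range. It was the 1 far array found in 48 groups of 4 arrays tested, and chance gives about 1 in 20. It is also the array with high adipocyte markers, and their part in this value was not tested.

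In the same row both irradiated miR-21-/- arrays were below both untreated miR-21-/- arrays, by as little as 1.97 against 2.0, and both irradiated miR-21+/+ arrays were above both untreated ones. Neither difference passed: it was -0.18 in miR-21-/- tumors (unadjusted p = 0.56) and 0.50 in miR-21+/+ tumors (unadjusted p = 0.138 in limma), and the miR-21-/- signals were close to the lowest of the array. The interaction of -0.68 had an adjusted p of 0.811 in limma. Row 17267339 had the opposite signs, with 4.73 and 5.04 in irradiated and 3.27 and 4.56 in untreated miR-21-/- tumors, against 4.85 and 3.08 in irradiated and 6.16 and 4.99 in untreated miR-21+/+ tumors. Its interaction of 2.58 had an unadjusted p of 0.042 and an adjusted p of 0.722 in limma.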

How the results depend on the processing

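The number of Vmp1 rows lower in miR-21-/- tumors at an adjusted p under 0.05 was 0 and became 2 with a variance trend and robust estimation (rows 17267330 and 17267332, adjusted p = 0.0265 and 0.0398 in limma). Over the 8 fits that leave out an array it was 0 to 2, with 2 when irradiated miR-21-/- replicate 2 was left out, and in irradiated tumors 0 to 1, with 1 without that array. Rows apart from the rest of the gene numbered 1 to 3 over these fits, 0 among rows above the median level, where both called rows are left out, and 0 with a spread of its own for each row. The gene level difference was -0.81 to -0.64 over the fits that leave out an array. Its call was lost with the replicate number as a block (-0.73, adjusted p = 0.0635), with the median of the rows (-0.83, adjusted p = 0.137) and without the 2 lowest rows (-0.46, adjusted p = 0.133), and its adjusted p ran from 0.0029 to 0.171 over 17 alternatives in limma. With the block, run for these 2 genes after seeing the data, the calls of Gdpd1 (adjusted p = 0.0616) and of Wdr45b within irradiated tumors (adjusted p = 0.068 in limma) were lost too, and those of Wdr45b over both treatments and of the Vmp1 rows by diffSplice, over both treatments and within each, were not. None of the gene level's radiation effects passed an adjusted p of 0.05: with the median of the rows they turned to 0.49 in miR-21+/+ tumors, -0.33 in miR-21-/- tumors and -0.81 for the interaction, and without single arrays the effect in miR-21-/- tumors was -0.14 to 0.21. The cause was not tested. The genotype difference within untreated tumors, -1.02, passed in 5 of 18 alternatives, with adjusted p-values of 0.0098 to 0.0461 in limma. Over 13 alternatives the differences were -4.88 to -4.09 in row 17267330, -2.35 to -2.07 in row 17267332 and -0.83 to -0.67 in the shared row.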
